A study of Mus musculus with 18 samples.

Results

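Neutrophil-recruiting chemokines and inflammatory cytokines were followed in 4T1 tumors after inhibition of PI3K, of SHP2 or of both. The genes are the 4 CXCR2 ligands Cxcl1, Cxcl2, Cxcl3 and Cxcl5, the colony-stimulating factors Csf3 and Csf2, and the cytokines Il1a, Il1b, Il6 and Tnf. They were listed by name, with earlier results of these data known, and are 10 of the 22792 genes counted. All 10 were matched by their Entrez identifiers, 9 had enough counts to be tested in the fit over all genes, and Csf2 did not.

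The tumors were raised in Balb/c mice, females of 8 weeks, which received 300000 cells of 4T1, a triple-negative mammary carcinoma line from mouse, in the mammary fat-pad. Every mouse carried such a tumor, and dosing ran from day 7 to collection on day 21. Vehicle alone was given in 5 cases (Vehicle), the pan-PI3K inhibitor CLR457 in 4 (PI3Ki), the allosteric SHP2 inhibitor SHP099 in 4 (SHP2i) and both inhibitors in 5 (Combo). RNA of whole tumors was sequenced, so the counts mix carcinoma cells of 1 line with the stroma and immune cells of an immunocompetent host, and fewer cells of a type cannot be told apart from less RNA per cell. The numbers of PI3Ki tumors run 1, 2, 3, 5 and those of SHP2i tumors 2 to 5, and PI3Ki 4 and SHP2i 1 were not analysed here.

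Cxcl1, Cxcl2, Cxcl3 and Cxcl5 are secreted proteins that bind CXCR2 on neutrophils and draw them out of the blood. Csf3 encodes G-CSF, which makes the bone marrow release neutrophils and which 4T1 tumors are known for producing. Il1a, Il1b and Tnf are early alarm cytokines that switch on the chemokines and Il6 through NF-kB in many cell types, and Il1b is largely a product of macrophages and neutrophils.

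Depth ranged from 21.16 to 26.62 M counts per tumor (median 23.52 M). Epithelial keratins marked carcinoma cells in all groups, with Krt8 at a mean of 559 CPM (counts scaled to library size with TMM factors) in Vehicle and 393 CPM in Combo, and the 9 epithelial markers summed to between 707 and 1396 CPM in the 18 tumors. All 4 PI3Ki tumors carried skeletal muscle RNA, with 8 muscle markers summing to between 805 and 1906 CPM against at most 97.6 CPM in any other tumor. PI3Ki tumor 2 held the most neutrophil RNA, with 19 markers summing to 3235 CPM. Combo tumors 4 and 5 had the lowest mean level of macrophage and monocyte markers. The labels name no batch.

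In Vehicle tumors Il1b had the highest level of the 10 genes per kilobase of transcript, at 68 CPM per kb. Cxcl1 followed with 15.4, Cxcl5 with 11.4, Csf3 with 10.5, Cxcl2 with 6.78 and Cxcl3 with 5.42 CPM per kb. Tnf (1.95), Il1a (1.68), Il6 (0.848) and Csf2 (0.377 CPM per kb) were low. Combo had the lowest mean level of 9 of the 10 genes, all but Il6, whose lowest mean was in Vehicle. PI3Ki had the highest mean of 6, the 4 CXC ligands, Csf3 and Csf2. Of these 6 only Cxcl5 was called higher than in Vehicle, and the Cxcl3 mean of 13.6 CPM in PI3Ki stood beside a median of 6.94 CPM. The mean was highest in Vehicle for Il1a, Il1b and Tnf, and in SHP2i for Il6. Combo tumor 5 had the lowest level of all 18 tumors for each of the 10 genes. It also had the lowest mean level of neutrophil, macrophage and monocyte, dendritic, T and NK and platelet markers, but not of the other cell marker lists. The share of all genes that were lowest in this tumor or in Combo, or highest in PI3Ki, was not computed.

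**Figure D1:**
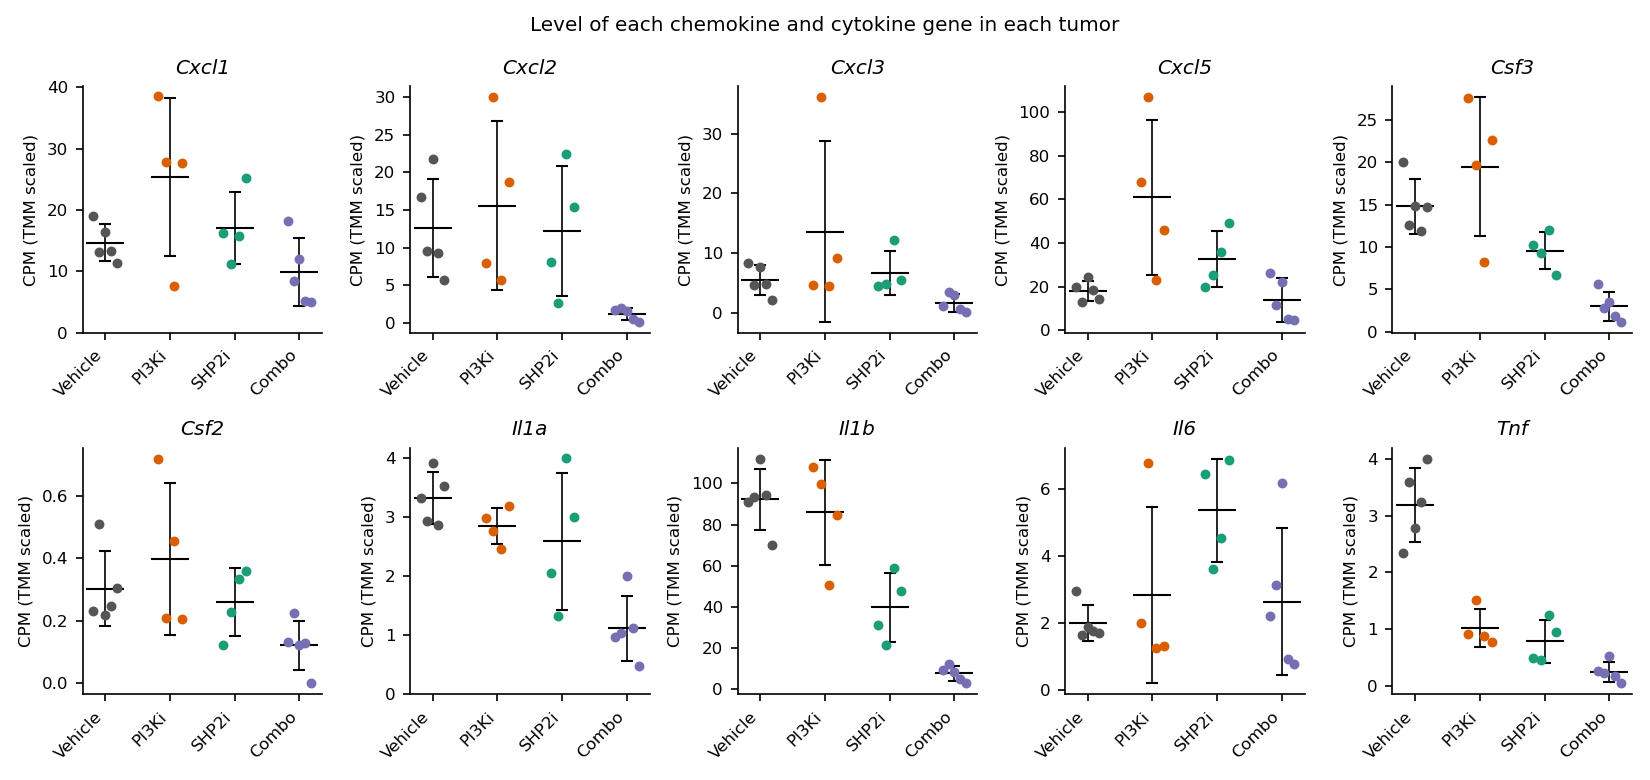
Level of each of the 10 genes in CPM (TMM scaled, linear axes, own scale per gene), with 1 point per tumor and the mean and SD of each group as a bar. Combo tumors sit lowest for Cxcl2, Csf3, Il1b and Tnf, where they lie below all Vehicle tumors, while Il6 is highest in SHP2i and in single tumors of PI3Ki and Combo.

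The CXC ligand genes lie in the same region of chromosome 5. Cxcl5 runs from 90759298 to 90761625, Cxcl3 from 90786101 to 90788093, Cxcl1 from 90891245 to 90893121 and Cxcl2 from 90903899 to 90905938 (GRCm38.p6), a stretch of 147 kb. They arose by duplication, and the sources used here do not say how reads that match several of them were counted. The letters just before the start of Cxcl3, Cxcl1 and Cxcl2 show what these genes share. Those of Il6 are set beside them as a gene outside the cluster that moved otherwise. Each line gives the 120 bases that end at the last base before the RefSeq start (GRCm38.p6, gene strand), with matches to the kB motif GGGNNNTTCC, the binding site type of NF-kB, in capitals on either strand.
Cxcl3, chr5:90785981-90786100, plus strand: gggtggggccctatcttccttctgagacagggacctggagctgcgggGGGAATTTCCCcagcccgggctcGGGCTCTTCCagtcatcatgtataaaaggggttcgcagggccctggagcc
Cxcl1, chr5:90891125-90891244, plus strand: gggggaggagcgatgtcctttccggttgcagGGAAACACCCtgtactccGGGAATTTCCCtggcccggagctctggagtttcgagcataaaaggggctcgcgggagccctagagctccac
Cxcl2, chr5:90903779-90903898, plus strand: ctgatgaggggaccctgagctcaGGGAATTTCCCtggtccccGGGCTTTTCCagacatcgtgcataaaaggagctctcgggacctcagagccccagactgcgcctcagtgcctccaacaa
Il6, chr5:30012994-30013113, plus strand: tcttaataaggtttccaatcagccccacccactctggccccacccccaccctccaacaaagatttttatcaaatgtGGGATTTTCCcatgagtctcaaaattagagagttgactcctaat

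The run GGGAATTTCCC, which holds a match on each strand, offset by 1 base, stood in Cxcl1, Cxcl2 and Cxcl3, and a further kB match lay in the printed bases of all 3. RefSeq windows of 250 bases before to 50 after the start were held for 8 of the 10 genes, not for Cxcl5 and Csf3. A kB match was present in 4 of these 8 (Cxcl1, Cxcl2, Cxcl3 and Il6), beside 5.56% of 32851 windows of all genes. The AP-1 motif TGANTCA was present in Il1a and Il6 (7.81% of all windows) and the C/EBP motif TTGCNNAA in Csf2 and Il6 (10.8%). The CRE motif TGACGTCA was present in 0 of the 8 windows and in 1.79% of all windows. Il6 thus held 3 of the 4 motifs searched. A match is a description of letters and no evidence of binding.

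Cxcl2 fell in Combo. Vehicle tumors 1 to 5 were at 16.7, 9.51, 21.8, 9.31 and 5.76 CPM. The PI3Ki tumors 1, 2, 3 and 5 were at 7.99, 30, 5.67 and 18.8 CPM and the SHP2i tumors 2, 3, 4 and 5 at 8.05, 2.69, 22.5 and 15.4 CPM. Combo tumors 1 to 5 were at 1.79, 2.01, 1.63, 0.561 and 0.177 CPM. Every Combo tumor lay below every tumor of the other groups, while Vehicle, PI3Ki and SHP2i overlapped. The mean went from 12.6 ± 6.47 CPM (SD, n = 5) in Vehicle to 1.24 ± 0.813 CPM (SD, n = 5) in Combo, which is -3.34 as a log2 fold change (standard error, SE, 0.653, adjusted p = 0.00063 from edgeR). The single inhibitors gave log2 fold changes of 0.31 (PI3Ki, SE 0.598, adjusted p = 0.845) and -0.05 (SHP2i, SE 0.602, adjusted p = 0.965).

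Cxcl5 behaved otherwise. It was at 19.6, 13.1, 24.5, 18.2 and 14.3 CPM in Vehicle tumors 1 to 5 and at 68.1, 107, 22.8 and 46.1 CPM in PI3Ki tumors 1, 2, 3 and 5. PI3Ki tumors 1, 2 and 5 lay above every Vehicle tumor, and PI3Ki tumor 3 within the Vehicle range. The mean rose from 17.9 ± 4.55 CPM (SD, n = 5) to 61 ± 35.7 CPM (SD, n = 4), which is 1.77 as a log2 ratio (SE 0.482, adjusted p = 0.0419). This call was lost when any of 9 tumors was left out, namely each Vehicle tumor, PI3Ki tumors 1, 2 and 5 and SHP2i tumor 4 (adjusted p up to 0.132). All 8 tested muscle markers rose in the same tumors, and with their level as a covariate Cxcl5 was at 0.82 (adjusted p = 0.907), so PI3K inhibition and muscle content cannot be told apart here. The SHP2i tumors were at 20, 25.3, 35.8 and 49.4 CPM (log2 fold change 0.86, adjusted p = 0.244) and the Combo tumors at 26.3, 11.4, 22, 4.88 and 4.52 CPM (log2 fold change -0.37, adjusted p = 0.539).

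Cxcl1 ranged from 11.4 to 19.1 CPM in Vehicle, from 7.6 to 38.5 CPM in PI3Ki, from 11.2 to 25.2 CPM in SHP2i and from 5.09 to 18.3 CPM in Combo. No comparison with Vehicle passed, with log2 fold changes of 0.79 in PI3Ki (adjusted p = 0.289), 0.22 in SHP2i (0.753) and -0.57 in Combo (SE 0.382, adjusted p = 0.237). Cxcl3 ranged from 2.14 to 8.4 CPM in Vehicle and from 0.0886 to 3.44 CPM in Combo, with Combo tumors 1, 4 and 5 below the Vehicle range. Its log2 fold change of -1.74 in Combo (SE 0.701) missed the threshold at an adjusted p of 0.0536, and PI3Ki tumor 2 stood at 36.1 CPM while the other PI3Ki tumors lay between 4.5 and 9.21 CPM. The change in Combo passed in 6 of the 18 fits that left out 1 tumor, the one without PI3Ki tumor 2 among them, and in DESeq2 (log2 fold change -1.76, adjusted p = 0.0409).

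The mix of CXC ligands is shown by the ratios of their counts. Vehicle tumors held between 0.754 and 1.98 counts of Cxcl1 per count of Cxcl2, and Combo tumors 10.2, 4.22, 7.4, 9.38 and 28.8. The highest ratio in the single inhibitor groups was 4.82, in PI3Ki tumor 1, so Combo tumor 2 overlapped them and the other Combo tumors did not. Counts of Cxcl5 per count of Cxcl2 ran from 1.13 to 2.48 in Vehicle and from 5.64 to 25.5 in Combo. PI3Ki tumor 1 (8.53) and SHP2i tumor 3 (9.39) reached into the Combo range, where Combo tumor 2 was at 5.64 and Combo tumor 4 at 8.69. These ratios were chosen after the values were seen and were not tested.

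**Figure D2:**
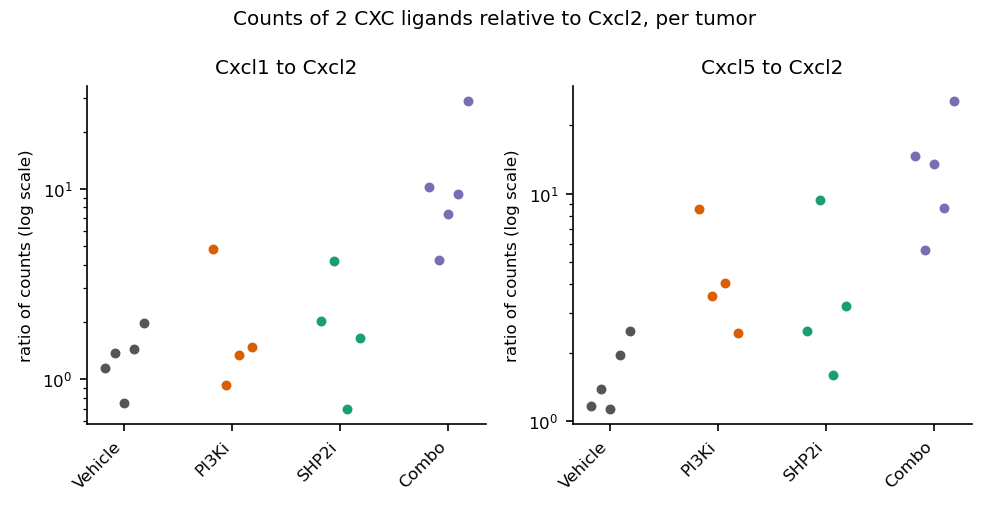
Counts of Cxcl1 (left) and Cxcl5 (right) divided by counts of Cxcl2 in each of the 18 tumors, 1 point per tumor, on a log scale. Combo tumors run from 4.22 to 28.8 for Cxcl1 and from 5.64 to 25.5 for Cxcl5, above all Vehicle tumors.

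Csf3, on chromosome 11 from 98700183 to 98703631, overlaps the noncoding gene Gm38985. It was at 20, 12.6, 14.8, 11.9 and 14.7 CPM in Vehicle tumors 1 to 5 and at 5.65, 2.82, 3.47, 1.9 and 1.2 CPM in Combo tumors 1 to 5. All Combo tumors lay below all tumors of the other groups. The mean fell from 14.8 ± 3.2 to 3.01 ± 1.71 CPM (SD, n = 5 each), which is -2.30 as a log2 ratio (SE 0.354, adjusted p = 8.16e-05). PI3Ki tumors ranged from 8.24 to 27.6 CPM (log2 fold change 0.40, adjusted p = 0.591) and SHP2i tumors from 6.76 to 12 CPM (log2 fold change -0.63, SE 0.355, adjusted p = 0.252). In a fit of the SHP2i and Vehicle tumors alone the SHP2i value passed (-0.64, adjusted p = 0.0312).

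Csf2, which encodes GM-CSF, a factor for granulocytes and macrophages, lies on chromosome 11 from 54247270 to 54249899 and overlaps Gm12223. It had 0 to 18 counts per tumor, 114 in all, and was not in the fit. Mean levels were 0.302 ± 0.12 CPM in Vehicle (SD, n = 5), 0.397 ± 0.244 in PI3Ki (SD, n = 4), 0.26 ± 0.109 in SHP2i (SD, n = 4) and 0.121 ± 0.0796 CPM in Combo (SD, n = 5). An exact permutation test of mean log2 CPM (two-sided) gave p = 0.0159 for Combo against Vehicle, with a difference of -0.97. Adjusted over the 6 pairs of groups tested for Csf2, this exact p became 0.0952, and no pair passed. An edgeR fit with no filter on low counts called Csf2 lower in Combo than in PI3Ki (-1.70, adjusted p = 0.0269) and not against Vehicle (-1.31, adjusted p = 0.0722). Differences at this depth rest on a handful of reads per tumor.

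Il1b, on chromosome 2 from 129364569 to 129371164, fell in SHP2i and further in Combo. Vehicle tumors 1 to 5 were at 91.2, 93.3, 112, 94.6 and 70.1 CPM. The PI3Ki tumors were at 108, 99.5, 50.8 and 84.7 CPM, and the SHP2i tumors at 31.1, 21.3, 59.1 and 47.5 CPM. Combo tumors 1 to 5 were at 9.54, 12.3, 8.53, 5.14 and 2.97 CPM. SHP2i tumors lay below all Vehicle tumors, and Combo tumors below all SHP2i tumors. The mean went from 92.3 ± 14.9 CPM (SD, n = 5) in Vehicle to 39.8 ± 16.8 CPM (SD, n = 4) in SHP2i, which is -1.21 as a log2 ratio (SE 0.332, adjusted p = 0.0251). In Combo it was 7.68 ± 3.67 CPM (SD, n = 5), which is -3.58 as a log2 ratio (SE 0.343, adjusted p = 9e-07). The order was Vehicle, PI3Ki, SHP2i, Combo. Vehicle and PI3Ki did not differ beyond their spread (log2 fold change -0.10, SE 0.321, adjusted p = 0.912), while SHP2i lay below PI3Ki (-1.11, adjusted p = 0.0263) and Combo below SHP2i (-2.37, adjusted p = 0.000245). The SHP2i call against Vehicle was lost without Vehicle tumor 2 or 3 or SHP2i tumor 2 or 3 (adjusted p up to 0.0739).

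Tnf, on chromosome 17 from 35199367 to 35202007, was called lower than in Vehicle in every treated group. Vehicle tumors 1 to 5 were at 2.35, 3.6, 2.79, 3.24 and 4.01 CPM. The PI3Ki tumors were at 0.918, 1.51, 0.87 and 0.774 CPM, the SHP2i tumors at 0.483, 0.456, 1.25 and 0.94 CPM, and Combo tumors 1 to 5 at 0.263, 0.224, 0.53, 0.173 and 0.0443 CPM. No treated tumor reached the lowest Vehicle tumor. Log2 fold changes were -1.65 in PI3Ki (SE 0.385, adjusted p = 0.0179), -2.02 in SHP2i (SE 0.396, adjusted p = 0.00364) and -3.66 in Combo (SE 0.412, adjusted p = 4.31e-06). PI3Ki and SHP2i did not differ beyond their spread (SHP2i against PI3Ki -0.38, SE 0.415, adjusted p = 0.535). The PI3Ki call was lost without PI3Ki tumor 1 or 5 (adjusted p up to 0.0646). It was also lost with the muscle marker level as a covariate and with the tumor number as a block. All PI3Ki tumors carried muscle RNA, so PI3K inhibition and muscle content cannot be told apart for Tnf either. With the macrophage marker level as a covariate, added after the values were seen, the SHP2i and Combo calls of Tnf were lost. Tnf had 581 counts in all and 1 to 92 per tumor, so its precision is lower than that of Il1b with 23959 counts.

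Il1a, on chromosome 2 from 129299609 to 129310186, ranged from 2.87 to 3.92 CPM in Vehicle, from 2.46 to 3.18 in PI3Ki and from 1.32 to 4 CPM in SHP2i. In Combo it was between 0.487 and 2 CPM, below all Vehicle tumors, with a log2 fold change of -1.56 (SE 0.307, adjusted p = 0.000684). Neither single inhibitor passed (PI3Ki -0.22, adjusted p = 0.773; SHP2i -0.35, adjusted p = 0.477). Il1a overlaps Gm14023 and Il1b overlaps Il1bos, both noncoding genes. The libraries keep the strand, but the strand setting of the counting is not given in the sources used here.

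Il6, on chromosome 5 from 30013114 to 30019975 and overlapping A230098N10Rik, did not share the fall in Combo. Vehicle tumors 1 to 5 were at 2.95, 1.64, 1.87, 1.76 and 1.7 CPM. The SHP2i tumors were at 6.44, 3.6, 4.54 and 6.85 CPM, all above every Vehicle tumor. PI3Ki tumors were at 2, 6.76, 1.25 and 1.3 CPM, and Combo tumors at 2.19, 3.13, 6.16, 0.907 and 0.753 CPM, both groups spanning the Vehicle range. In SHP2i the mean was 5.36 ± 1.54 CPM (SD, n = 4) against 1.99 ± 0.547 CPM (SD, n = 5) in Vehicle, which is 1.43 as a log2 ratio (SE 0.551) and missed the threshold at an adjusted p of 0.0974. It passed in a fit of these groups alone (1.41, adjusted p = 0.00239), with limma's quality weights (1.54, adjusted p = 0.00154) and without PI3Ki tumor 2 (adjusted p = 0.0475). In Combo the log2 fold change was 0.41 (SE 0.529, adjusted p = 0.562).

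**Figure D3:**
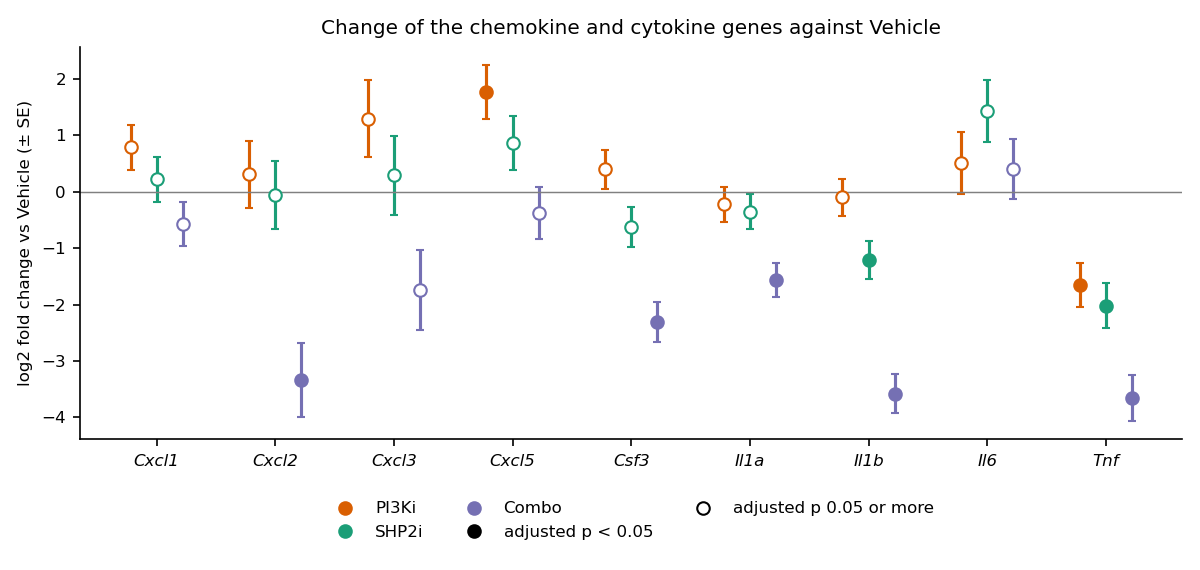
Log2 fold change against Vehicle (± standard error, edgeR) of the 9 tested genes in PI3Ki, SHP2i and Combo, with filled points at an adjusted p under 0.05. Combo has 5 filled points, all below 0 (Cxcl2, Csf3, Il1a, Il1b, Tnf), and Cxcl5 in PI3Ki is the one filled point above 0.

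Against Vehicle, 1 of the 9 tested genes was higher and 1 lower in PI3Ki, beside 2.69% higher and 2.42% lower of the 15282 genes tested. In SHP2i 0 were higher and 2 lower by edgeR, beside 5.05% and 6.54% of all genes. Il6 was higher at an unadjusted p under 0.05, and DESeq2 called 0 higher and limma 1. In Combo 0 were higher and 5 lower, beside 23.9% and 19.7%, with 0 higher at an unadjusted p under 0.05 and 0 by DESeq2 or limma. The same 5 were lower without Combo tumors 4 and 5. The median log2 fold change of the 9 genes was 0.40 in PI3Ki, -0.05 in SHP2i and -1.74 in Combo, where the median over all genes was 0.01, 0.02 and 0.02. These comparisons share the 5 Vehicle tumors.

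Between the treated groups, 5 of the 9 genes were lower in Combo than in SHP2i and 0 higher, beside 10.3% lower and 11.8% higher of all genes. They were Cxcl2 (-3.29), Csf3 (-1.67), Il1a (-1.20), Il1b (-2.37) and Tnf (-1.63 on the log2 scale). The calls of Il1a and Tnf were lost without SHP2i tumor 4 (adjusted p = 0.0641 and 0.0631), and 8 genes were lower without Combo tumor 3. Against PI3Ki, 8 of the 9 were lower in Combo, all but Il6, and 0 higher, beside 17.8% and 19.9% of all genes. Among them Cxcl1 (-1.36, adjusted p = 0.013), Cxcl3 (-3.04, adjusted p = 0.00399) and Cxcl5 (-2.14, adjusted p = 0.00259) passed here and not against Vehicle. The Cxcl1 call was lost without PI3Ki tumor 1 (adjusted p = 0.0529). With the muscle marker covariate 0 of the 9 were lower in Combo than in PI3Ki. With the neutrophil covariate 1 was lower, and with the macrophage covariate 1 was lower and 1 higher. All PI3Ki tumors carried muscle RNA, so treatment and muscle content cannot be told apart in this comparison. Between the single inhibitors Il1b was lower in SHP2i and no other tested gene passed in edgeR's quasi-likelihood test, beside 12.8% lower and 11.6% higher of all genes. That call was lost without PI3Ki tumor 1 or 2 or SHP2i tumor 2 or 3 (adjusted p up to 0.075), and limma called 1 higher. Csf3 missed the threshold (-1.02, adjusted p = 0.053) but passed in DESeq2 (-1.03, adjusted p = 0.0258), the likelihood ratio test (adjusted p = 0.0334) and limma (-1.17, adjusted p = 0.0081).

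The interaction asks whether the change in Combo differed from the sum of both single changes on the log2 scale. It was called below 0 at an adjusted p under 0.05 for 4 of the 9 genes and above 0 for 0. Of all genes 1.61% were called below and 0.864% above. The median interaction of the 9 genes was -2.07, beside 0.02 over all genes. Il1b had an interaction of -2.27 (SE 0.465, adjusted p = 0.0173), Cxcl5 of -3.0 (SE 0.683, adjusted p = 0.0291), Csf3 of -2.07 (SE 0.502, adjusted p = 0.038) and Cxcl2 of -3.60 (SE 0.89, adjusted p = 0.0412). For Tnf it was 0.02 (adjusted p = 0.999), so that the Combo change of -3.66 lay near the sum of -1.65 and -2.02. DESeq2 gave -0.01 for Tnf with an SE of 0.592, so a departure from the sum is not excluded. All PI3Ki tumors carried muscle RNA, and the PI3Ki change enters each sum. The Il1b call held without any single tumor (adjusted p from 0.00922 to 0.0486). The calls of Cxcl5, Cxcl2 and Csf3 were lost in 6, 11 and 13 of the 18 fits that left out 1 tumor, and with Combo tumors 4 and 5 left out together, chosen after the values were seen, that of Il1b remained (-1.89, adjusted p = 0.0463).

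Markers of myeloid cells and of some other cells moved with these genes. Of 18 tested neutrophil markers, 12 were lower and 1 higher in Combo than in Vehicle, 2 lower in SHP2i and 4 higher in PI3Ki, where 0 were higher in SHP2i and 0 lower in PI3Ki. The calprotectin genes S100a8 and S100a9 fell in Combo with log2 fold changes of -3.83 (adjusted p = 0.00104) and -4.13 (adjusted p = 0.000357). Ly6g, a surface marker of mouse neutrophils, had 0 counts in all Combo tumors. Its counts were too low for the fit, with means of 0.222 CPM in Vehicle, 1.34 in PI3Ki and 0.0212 CPM in SHP2i. No marker was at 0 in all 18 tumors. The sum of the 19 markers ran from 500 to 696 CPM in Vehicle, 794 to 3235 in PI3Ki, 369 to 551 in SHP2i and 417 to 638 CPM in Combo, and most of it in Combo was Padi4 and Mmp9, means of 291 and 146 CPM. Of 14 macrophage and monocyte markers, 12 were lower in Combo and 10 in SHP2i, and 0 were called in PI3Ki. Their sum ran from 3509 to 5005 CPM in Vehicle, 3245 to 7452 in PI3Ki, 1175 to 2341 in SHP2i and 524 to 1838 CPM in Combo, and no marker was at 0 in every tumor. In Combo 7 of 8 endothelial (median log2 fold change -1.27), 5 of 8 dendritic, 5 of 9 T and NK and 4 of 6 mast cell markers were lower as well. There 1 dendritic marker was higher, and of 8 fibroblast markers 3 were lower and 2 higher. By contrast, 0 of 7 B and plasma cell and 0 of 3 tested platelet markers were called, and 1 of 9 epithelial and 1 of 8 muscle markers was lower. Of all genes 19.7% were lower and 23.9% higher in Combo, 6.54% lower in SHP2i and 2.69% higher in PI3Ki. Endothelial markers summed to 420 to 529 CPM in Vehicle and 178 to 246 CPM in Combo, and the part of these other cells in the results was not tested.

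The fit was repeated with the mean log2 CPM of the markers as a covariate. With the neutrophil markers, Il1b (-2.81, adjusted p = 0.00158), Tnf (-2.90, adjusted p = 0.00325) and Csf3 (-1.88, adjusted p = 0.031) were lower in Combo than in Vehicle, while Cxcl2 (-1.24, adjusted p = 0.341) and Il1a (-1.19, adjusted p = 0.129) did not pass. With the macrophage markers, added after the values were seen, Il1b was lower (-1.90, adjusted p = 0.023), Il6 was higher (3.03, adjusted p = 0.00779), and 4 of the 5 calls were lost, with Tnf at -1.15 (adjusted p = 0.167), Csf3 at -1.74 (0.149), Cxcl2 at -0.35 (0.863) and Il1a at -0.15 (0.889). Il6 was higher in SHP2i with either covariate (2.20, adjusted p = 0.0129, and 3.26, adjusted p = 0.000992). Neither marker level overlapped between Vehicle and Combo, so treatment and marker level cannot be told apart in these fits.

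**Figure D4:**
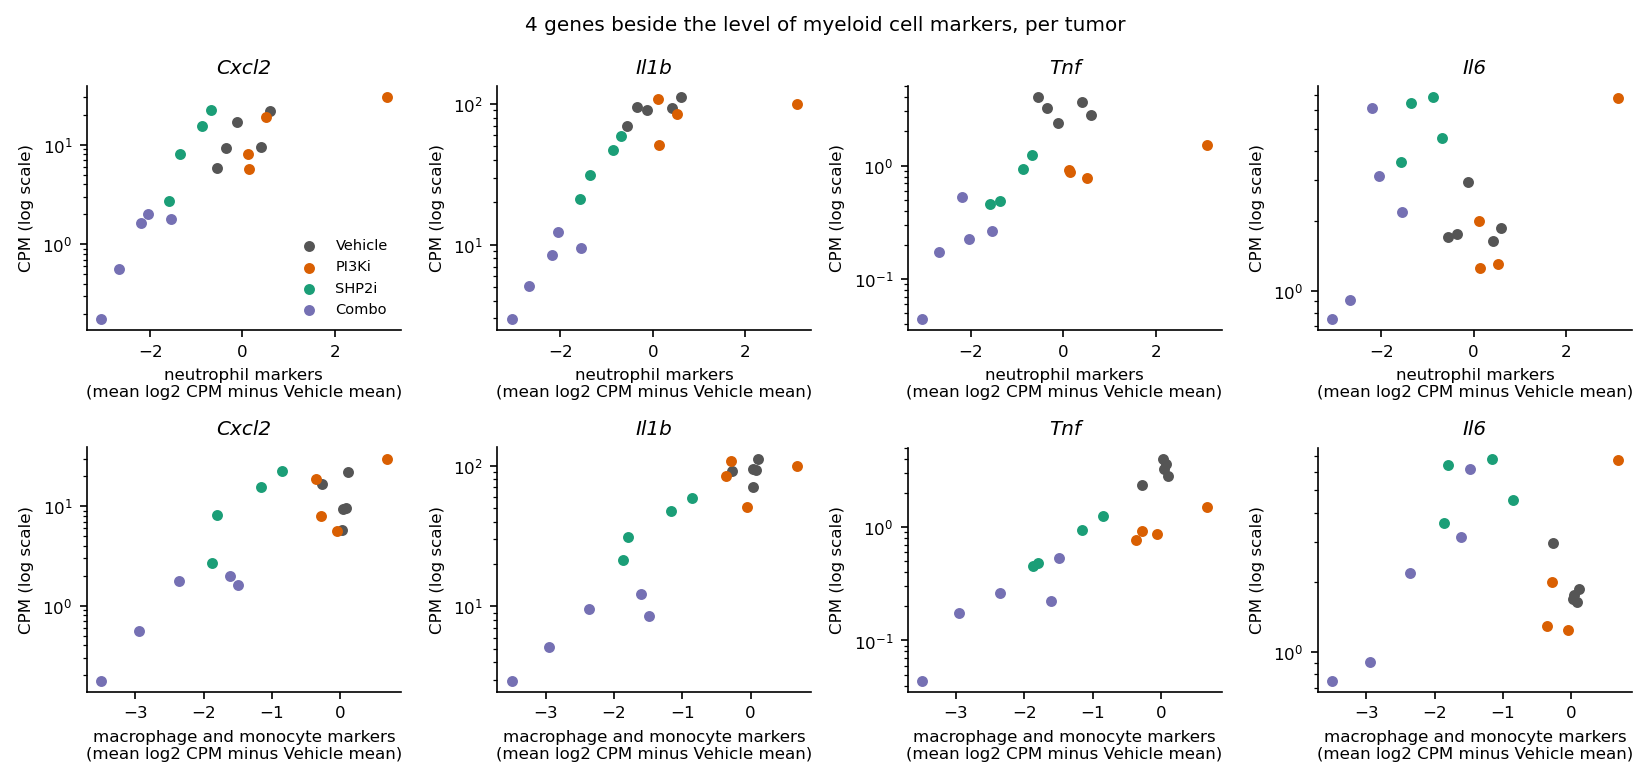
CPM (log scale) of Cxcl2, Il1b, Tnf and Il6 in each of the 18 tumors against the mean log2 CPM of neutrophil markers (top) and of macrophage and monocyte markers (bottom), relative to the Vehicle mean. Combo tumors lie at the lower left for Cxcl2, Il1b and Tnf, PI3Ki tumors have less Tnf than Vehicle tumors at macrophage marker levels of -0.36 to 0.68, and Il6 is highest in SHP2i tumor 5 (6.85 CPM) and in PI3Ki tumor 2 (6.76 CPM), the tumor with the highest level of both marker lists.

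Genes whose log2 CPM followed each of these genes most closely over the 18 tumors were listed as a description, with Pearson's r. All points share the group structure, so r after subtracting group means is given second. Cxcl2 was most like Clec4e, a receptor of activated myeloid cells (0.968 and 0.893), and Trim30b (0.952 and 0.882). Il1b was most like Il1bos, which overlaps it (0.985 and 0.940), and Slc15a3, a peptide transporter of lysosomes (0.972 and 0.701). Tnf was most like Gngt2 (0.975 and 0.870) and Apobec1 (0.970 and 0.869), with Apobec1 going from a mean of 77.1 CPM in Vehicle to 41.5, 29.3 and 10.7 CPM in PI3Ki, SHP2i and Combo. Il1a was most like its overlapping gene Gm14023 (0.985 and 0.964) and Nfkbid, a regulator of NF-kB (0.935 and 0.848).

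Il6 was most like F3, tissue factor, the trigger of blood clotting (0.914 and 0.894), and Fam227b (0.868 and 0.904). Cxcl3 was most like Tfpi2 (0.958 and 0.917) and Gpx7 (0.945 and 0.881). Cxcl5 was most like Arg2, a mitochondrial arginase (0.869 and 0.784), and Hoxc10 (0.867 and 0.842). Csf3 was most like Cenpt (0.946 and 0.880) and Slc15a3 (0.945 and 0.716). Cxcl1 was most like Ifitm5 (0.863 and 0.830) and U2af1l4 (0.862 and 0.856), the loosest match of the 9.

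The counts of the lists that follow stand beside the shares of all genes given above. Of 12 receptor genes, 5 were lower and 3 higher in Combo than in Vehicle, where 19.7% and 23.9% of all genes were, with a median log2 fold change of -0.41. Lower were Cxcr2, the receptor of the CXC ligands (-2.75, adjusted p = 0.000625), Cxcr1 (-1.74, adjusted p = 0.0445), Csf3r, the G-CSF receptor (-1.22, adjusted p = 0.0425), Csf2ra, the GM-CSF receptor subunit (-2.42, adjusted p = 9.96e-05), and Il1rap (-0.37, adjusted p = 0.0274). Higher were Il6st, the shared signal subunit gp130 of IL6 family receptors, from 223 ± 30.8 to 393 ± 43.6 CPM (SD, n = 5 each, log2 fold change 0.82, adjusted p = 4.04e-05), Il6ra (0.66, adjusted p = 0.000176) and Il1r1 (0.79, adjusted p = 0.000138). The tumor necrosis factor receptors Tnfrsf1a (-0.18, adjusted p = 0.141) and Tnfrsf1b (0.07, adjusted p = 0.697) did not pass, nor did the shared beta chains Csf2rb (-0.62, adjusted p = 0.114) and Csf2rb2 (-0.45, adjusted p = 0.269). Cxcr1 was near the floor, with means of 0.272 CPM in Vehicle and 0.0777 CPM in Combo. Most neutrophil and macrophage markers given above were lower in Combo as well.

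In SHP2i 2 receptor genes were higher and 1 lower. Il1rap, the accessory chain of the IL1 receptor, rose from 34 ± 3.46 CPM (SD, n = 5) to 56.7 ± 6.13 CPM (SD, n = 4; log2 fold change 0.74, adjusted p = 0.00232). Il6st rose by 0.61 (adjusted p = 0.00442) and Csf2ra fell by 1.23 on the log2 scale (adjusted p = 0.0497). In PI3Ki 0 of the 12 passed in edgeR and 5 were higher at an unadjusted p under 0.05, with Cxcr2 at 1.12 (adjusted p = 0.227). The antagonists of IL1 fell in Combo, with 2 of 4 decoy and antagonist genes lower and 0 higher. Il1rn, which encodes the IL1 receptor antagonist, went from 27.2 ± 1.27 to 4.66 ± 2.7 CPM (SD, n = 5 each; log2 fold change -2.54, adjusted p = 7.01e-05), and Il1r2, the decoy receptor, was lower at -1.44 (adjusted p = 0.00688). In PI3Ki and SHP2i 0 of the 4 passed in edgeR, also at an unadjusted p under 0.05.

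Inflammasome genes were lower in SHP2i and Combo. Of 8 genes for the maturation and release of IL1 and TNF, 4 were lower in SHP2i (median -0.43) and 5 lower and 1 higher in Combo (median -0.55). Nlrp3, the sensor of an inflammasome that matures IL1, went from 16.8 ± 1.97 CPM (SD, n = 5) in Vehicle to 5.19 ± 1.98 CPM (SD, n = 4) in SHP2i and 1.5 ± 1.02 CPM (SD, n = 5) in Combo. Its log2 fold changes were -1.69 (adjusted p = 0.0106) and -3.48 (adjusted p = 5.41e-06). The adaptor Pycard fell by 1.95 (adjusted p = 0.0023) and 2.47 (adjusted p = 2.93e-05) on the log2 scale, and the DNA sensor Aim2 by 1.73 (adjusted p = 0.00232) and 2.24 (adjusted p = 2.38e-05). Rhbdf2, needed for TNF shedding, was lower in both (-0.42, adjusted p = 0.0155, and -0.64, adjusted p = 8.46e-05). In Combo Gsdmd, the pore that lets IL1b out, was lower (-0.47, adjusted p = 0.00889) and Casp4 higher (0.57, adjusted p = 0.0248), although Gsdmd in SHP2i was at -0.43 (adjusted p = 0.0555). Casp1, the protease that cuts pro-IL1b, did not pass in Combo (-0.02, adjusted p = 0.902), and Adam17, which sheds TNF, was at -0.06 (adjusted p = 0.657). The macrophage and monocyte markers given above fell in the same groups.

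**Figure D5:**
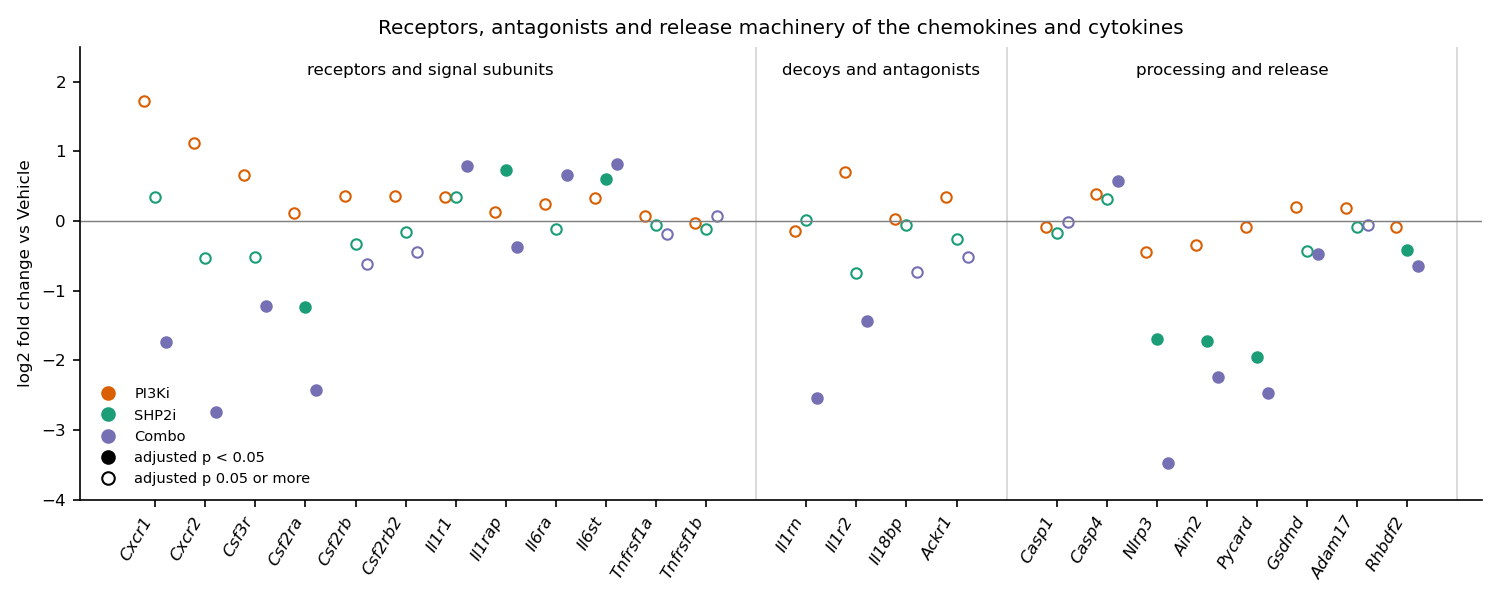
Log2 fold change against Vehicle of 12 receptor genes, 4 decoys and antagonists and 8 genes of processing and release, for PI3Ki, SHP2i and Combo, filled at an adjusted p under 0.05 (edgeR). Cxcr1, Cxcr2, Csf3r, Csf2ra, Il1rn and the inflammasome genes Nlrp3, Aim2 and Pycard are low in Combo, from -1.22 for Csf3r to -3.48 for Nlrp3, while Il1r1, Il6ra and Il6st lie above 0. Cxcr1 had a low level throughout (mean 0.272 CPM in Vehicle).

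Of 17 NF-kB factors, feedback and target genes, 2 were higher and 2 lower in Combo (23.9% and 19.7% of all genes), 2 higher in SHP2i (5.05% of all genes), and 0 passed in PI3Ki in edgeR, where 4 were higher and 2 lower at an unadjusted p under 0.05. Ptgs2, the inducible cyclooxygenase, rose from 125 ± 6.8 CPM (SD, n = 5) to 230 ± 21.4 CPM in SHP2i (SD, n = 4; log2 fold change 0.88, adjusted p = 1.43e-05) and to 286 ± 29.7 CPM in Combo (SD, n = 5; 1.20, adjusted p = 5.93e-08). Tnfaip3, the feedback inhibitor A20, rose by 0.84 in SHP2i (adjusted p = 0.00118) and by 0.58 in Combo (adjusted p = 0.00235). Lower in Combo were Nfkbib (-0.29, adjusted p = 0.00605) and the adhesion gene Icam1 (-0.59, adjusted p = 0.011). The factor genes Rela (0.01, adjusted p = 0.881) and Nfkb1 (0.12, adjusted p = 0.276) did not pass in Combo.

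Of 9 IL6 and STAT3 targets, 1 was higher in each treated group and 0 lower, though not the same gene in each. Of all genes 2.69% were higher in PI3Ki, 5.05% in SHP2i and 23.9% in Combo, and 2.42%, 6.54% and 19.7% were lower. Hp, haptoglobin, an acute phase protein, went from 304 ± 75.8 CPM (SD, n = 5) to 868 ± 108 CPM in SHP2i (SD, n = 4; log2 fold change 1.51, adjusted p = 0.0044) and to 676 ± 333 CPM in Combo (SD, n = 5; 1.15, adjusted p = 0.00416). In PI3Ki the kinase Pim1 was higher (0.95, adjusted p = 0.0125). Socs3, the feedback inhibitor of IL6 signaling, did not pass, with -0.13 in PI3Ki, 0.06 in SHP2i and -0.02 in Combo (adjusted p = 0.687, 0.81 and 0.905).

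Of 19 related ligands, 14 were tested, and 7 were lower and 2 higher in Combo, beside 1 lower each in PI3Ki and SHP2i. Of all genes 19.7% were lower and 23.9% higher in Combo, 2.42% lower in PI3Ki and 6.54% lower in SHP2i. Lower in Combo were Il11 (-1.37, adjusted p = 0.000117), Lta, lymphotoxin (-2.53, adjusted p = 0.00022), Il18 (-1.34, adjusted p = 0.00162), Il36g (-2.65, adjusted p = 0.00229), Il23a (-1.08, adjusted p = 0.0127), the platelet and myeloid chemokine Ppbp (-2.12, adjusted p = 0.0165) and Cxcl15 (-3.27, adjusted p = 0.0172). Higher were the macrophage growth factor Il34 (0.78, adjusted p = 0.000792) and Il33 (0.84, adjusted p = 0.00101). Lta was lower in SHP2i as well (-1.94, adjusted p = 0.00955), and Lif, an IL6 family cytokine, was lower in PI3Ki (-0.56, adjusted p = 0.0479). Csf1 had a mean of 275 CPM in Vehicle and did not pass in Combo (0.08, adjusted p = 0.625). Levels of Lta, Il36g, Ppbp and Cxcl15 were low, with means from 0.919 to 2.03 CPM in Vehicle and from 0.128 to 0.319 CPM in Combo.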

How the data were processed

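Poly(A) RNA of 18 tumors, 1 library each, was sequenced from directional libraries. Per the paper's methods and the labels, the authors removed adaptors (cutadapt), mapped to GRCm38 in 2 STAR passes and obtained gene counts with qCount of QuasR. Deposited were raw counts, whole and not normalized. Annotation, tool versions and strand setting are not given in the sources used here. The labels also name hg19.

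The model was fitted in edgeR 4.0.16 (R 4.3.3) after filterByExpr (minimum count 10, minimum total 15, leaving 15282 genes) and TMM scaling, using the quasi-likelihood F test over all 18 tumors, with Benjamini-Hochberg adjustment over all genes. Genes were called at an adjusted p under 0.05. Standard errors were taken as the fold change (log2) over root F, and log2 CPM used a prior count of 2. Nothing says that tumors share a litter or batch, and 1 tumor per mouse was taken as the replicate. Symbols and positions were matched to 22760 of 22792 identifiers. Levels per kilobase used the longest protein-coding transcript of GENCODE M21.

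The genes followed and the gene lists were chosen with earlier results of these data known. All 10 are named, with up to 3 genes of smallest p per list and comparison with Vehicle, and the 2 most like genes of each. Other list genes were named to complete a count of called genes or as defining members of their list, after their values were seen. Scripts were tested on simulated data. The alternatives were DESeq2 1.42.0, the likelihood ratio test, limma 3.58.1 (voom with quality weights), other scaling and filters, a fold change limit, fits of the compared groups alone, a replicate block, marker covariates and each tumor left out in turn.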

Additional observations from a re-analysis of the deposited data

Results flagged for a closer look

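In Vehicle, Il6 was at 2.95 CPM in tumor 1 and between 1.64 and 1.87 CPM in the other 4 tumors. The gap to the nearest tumor was 0.777 of the range of log2 CPM, above Dixon's limit for 5 samples. It was the one set flagged of 40 sets of gene and group checked, where chance flags about 1 in 20.

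The change in Combo differed from the sum of the single inhibitors' changes, by the interaction term, for 4 genes. The interaction was -3.60 for Cxcl2, -3.0 for Cxcl5, -2.07 for Csf3 and -2.27 for Il1b on the log2 scale. With the neutrophil marker covariate they were -1.47, -1.66, -1.69 and -1.55, and none passed in edgeR. All PI3Ki tumors carried muscle RNA, and the single PI3Ki change enters each interaction.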

How the results depend on the processing

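Of 936 recomputed log2 fold changes of the 9 genes, 831 kept their side of the threshold, 65 lost a call, 32 gained one and 8 turned sign with a call before or after. The 831 include 44 that turned sign with no call in either fit. Of all 52 sign changes, 43 came with a marker covariate and 19 were against Vehicle, such as Cxcl3 in Combo, at 0.58 with the neutrophil and 1.88 with the macrophage covariate. All 120 mean levels moved by less than 1 SD under other scaling. Counts are of the 9 genes. With a replicate block, 0 were higher and 0 lower in PI3Ki and 1 lower in SHP2i than in Vehicle, 0 lower in SHP2i than in PI3Ki, and the interaction held 2. Same-numbered tumors had a median correlation of 0.018 (from -0.42 to 0.326), which cannot show whether the numbers pair them. With the neutrophil covariate, 0 were higher in PI3Ki, 2 higher and 1 lower in SHP2i and 3 lower in Combo against Vehicle. It left 3 lower in Combo than SHP2i, 1 lower in Combo than PI3Ki, 1 higher and 0 lower in SHP2i than PI3Ki and 0 interactions. With the muscle covariate, nearly membership of PI3Ki, 0 were higher and 0 lower in PI3Ki, 1 lower in SHP2i, 0 lower in Combo than PI3Ki, 0 lower in SHP2i than PI3Ki, and 0 interactions remained. With the macrophage covariate (added later), 3 were higher and 0 lower in SHP2i and 1 higher and 1 lower in Combo. It left 2 lower in Combo than SHP2i, 1 higher and 1 lower in Combo than PI3Ki, 2 higher and 0 lower in SHP2i than PI3Ki and 0 interactions. Without Combo tumors 4 and 5 (added later), 1 was higher in SHP2i, 3 lower in Combo than SHP2i, 2 lower in SHP2i than PI3Ki and 1 an interaction. Limma gave 1 higher in SHP2i and 1 higher and 2 lower in SHP2i than PI3Ki, where DESeq2 and the likelihood ratio test gave 2 lower. Fits of the compared groups alone gave 2 higher in SHP2i and 3 lower in Combo than SHP2i.

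The 8 with a call were against PI3Ki. With the neutrophil covariate Cxcl3 was at 0.81 in Combo. With the macrophage covariate, Combo against PI3Ki gave 1.03 for Cxcl3, 0.08 for Cxcl5, 0.04 for Il1a, 2.81 for Il6 and 0.53 for Tnf, and SHP2i against PI3Ki 1.19 for Tnf. With the muscle covariate, SHP2i against PI3Ki gave 0.16 for Il1b. The cause was not tested.

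Leaving out 1 tumor gave 0 to 1 higher and 0 to 1 lower in PI3Ki, 0 to 1 higher and 1 to 2 lower in SHP2i and 5 to 6 lower in Combo against Vehicle. It gave 3 to 8 lower in Combo than SHP2i, 7 to 8 lower in Combo than PI3Ki, 0 to 1 higher and 0 to 2 lower in SHP2i than PI3Ki and 1 to 5 interactions. Low counts limit Tnf and Csf2.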

Other observations

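Immediate early and heat shock genes, which respond to growth factor signaling and to the handling of tissue, were listed too. Of 13, 7 were lower and 2 higher in Combo than in Vehicle (19.7% and 23.9% of all genes), 1 was lower in SHP2i and 2 were higher in PI3Ki. Egr1 went from 34.5 ± 4.95 to 9.38 ± 3.43 CPM (SD, n = 5 each; log2 fold change -1.88, adjusted p = 6.8e-06), Ier2 changed by -0.93 (adjusted p = 1.8e-05) and Fos by -1.20 (adjusted p = 0.000361), whereas Jun (0.54, adjusted p = 0.000444) and Klf4 (0.82, adjusted p = 0.0117) were higher. In PI3Ki Jun rose by 0.50 (adjusted p = 0.0102) and Ier3 by 1.00 (adjusted p = 0.0139), and in SHP2i Ier2 fell by 0.65 on the log2 scale (adjusted p = 0.00408). The part of these genes in the chemokine levels was not tested.

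Several of the 10 transcripts are short-lived in other settings, and 9 genes that control the decay of such messages were listed. In Combo 3 were higher and 2 lower, beside 23.9% and 19.7% of all genes. Zfp36, tristetraprolin, which speeds the decay of Tnf mRNA, went from 56.2 ± 8.61 to 27 ± 8.43 CPM (SD, n = 5 each; log2 fold change -1.06, adjusted p = 0.000716). Rc3h1, roquin, rose by 0.73 (adjusted p = 9.42e-06), Arid5a, a stabilizer of Il6 mRNA, by 0.55 (adjusted p = 0.000468) and Zfp36l1 by 0.59 (adjusted p = 0.00117). Elavl1 was lower in Combo (-0.18, adjusted p = 0.0377) and in PI3Ki (-0.27, adjusted p = 0.0366).

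Il6 and Tnf parted. Vehicle tumors held between 0.424 and 1.25 counts of Il6 per count of Tnf, PI3Ki tumors between 1.43 and 4.47, SHP2i tumors between 3.63 and 13.3 and Combo tumors between 5.25 and 17. All treated tumors lay above all Vehicle tumors. The ratio was chosen after the values were seen and was not tested, and in Combo it rests on 1 to 13 counts of Tnf.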
